A study of Mus musculus with 12 samples.

Results

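The genes of voltage-gated sodium and calcium channels were followed in the ischemic hemisphere of mice after transient middle cerebral artery occlusion (tMCAO). A hemisphere of sham-operated mice served for comparison. All 40 protein-coding genes of the count table whose symbol is Scn, a number and a or b, or starts with Cacn, were taken, out of 39756 genes. They comprised 14 sodium channel and 26 calcium channel genes, and 37 of the 40 passed the filter on low counts. Scn4a, Scn11a and Cacng1 did not pass.

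RNA came from 12 male C57BL/6J mice, 4 in each of 3 groups, all young adults and all labelled as 1 batch. Sham mice underwent sham surgery and received saline. Vehicle mice had the middle cerebral artery closed by a filament and then reopened (ischemia and reperfusion, I/R), and received saline. LJP mice had the same occlusion and received Laminaria japonica polysaccharide (LJP), a polysaccharide of a brown alga, through the stomach once daily before surgery and on from it. The study tried several doses of LJP and chose its middle dose for later experiments, while the labels give neither the dose nor the time after surgery of the sequenced mice. Each library was made from polyadenylated RNA of a whole hemisphere, so infarcted and spared tissue were read together, and fewer cells of a type cannot be told apart from less RNA per cell. Total counts per mouse lay between 17960353 and 22216315. Values are CPM, the reads of a gene per 1000000 of the TMM-scaled library size.

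Voltage-gated sodium channels open on depolarization and carry the rising phase of the action potential. Each consists of a pore-forming alpha subunit with beta subunits that set its gating and surface level. Voltage-gated calcium channels turn depolarization into calcium entry, which triggers transmitter release, dendritic signals and gene expression. Their alpha1 pore is joined by an alpha2delta and a beta subunit, and several members of the gamma family instead serve AMPA receptors as auxiliary subunits (TARPs). Calcium overload and loss of ionic gradients are textbook events of ischemic brain tissue.

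Vehicle mice had lower levels of most of these genes than Sham mice. Of the 37 tested genes, 23 fell and 2 rose (edgeR quasi-likelihood test, Benjamini-Hochberg adjusted p below 0.05), beside 17.3% of all 17558 tested genes that fell and 22.7% that rose. In those 23 genes every Vehicle mouse was below every Sham mouse (18.8% of all tested genes), and in the 2 every one was above (20.7%). Scn4b fell most, 4.19-fold, followed by Cacna2d3 (2.33-fold) and Cacng4 (2.30-fold), and Scn10a and Cacng5 rose. The median log2 fold change of the 37 genes was -0.62, beside a median of 3.5e-05 over all tested genes. In LJP mice the median log2 fold change of the channel genes was 0.39 against Vehicle and -0.24 against Sham. None of the 37 passed the adjusted test against Vehicle (0.0228% of all tested genes did), and 4 passed it against Sham (4.75%). None of the 4 held in all 12 fits that left out 1 mouse. A fit of the LJP and Sham mice alone called more channel genes, as given below.

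Promoter sequence is shown for 3 genes on which these results turn. Scn4b and its neighbour Scn2b both fell but by unequal amounts, and Cacng5 rose. The RefSeq promoter table used here held 41 promoters of 30 of the 40 genes (build GRCm38.p6). The 250 bases before the start are printed for each, 5′ to 3′ on the strand of the gene, with each CG dinucleotide in capitals. For Scn4b this is chr9:45138374-45138623, plus strand, for Scn2b chr9:45117626-45117875, plus strand, and for Cacng5, in the promoter at its outer start, chr11:107915056-107915305, minus strand.

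Scn4b: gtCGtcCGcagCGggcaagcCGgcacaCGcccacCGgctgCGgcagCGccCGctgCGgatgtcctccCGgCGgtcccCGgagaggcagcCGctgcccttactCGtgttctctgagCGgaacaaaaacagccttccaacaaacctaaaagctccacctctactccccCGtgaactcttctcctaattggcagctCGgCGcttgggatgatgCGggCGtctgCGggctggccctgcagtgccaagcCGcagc

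Scn2b: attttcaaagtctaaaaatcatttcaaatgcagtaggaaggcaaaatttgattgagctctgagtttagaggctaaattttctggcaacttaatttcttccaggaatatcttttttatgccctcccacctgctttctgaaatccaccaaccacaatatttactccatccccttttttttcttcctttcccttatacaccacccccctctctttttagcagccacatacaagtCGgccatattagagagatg

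Cacng5: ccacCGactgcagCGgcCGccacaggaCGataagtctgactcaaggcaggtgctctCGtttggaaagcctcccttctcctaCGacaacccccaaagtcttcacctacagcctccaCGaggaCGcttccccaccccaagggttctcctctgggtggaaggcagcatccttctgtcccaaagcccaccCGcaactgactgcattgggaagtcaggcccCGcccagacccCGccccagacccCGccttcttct

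The promoter of Scn4b held 23 CG dinucleotides and 66% G and C, the printed promoter of Cacng5 12 and 62%, and that of Scn2b 1 and 38.4%. A second promoter of Cacng5, chr11:107911363-107911612 on the minus strand, held 2 CG dinucleotides, 56.8% G and C and no GC box. The median was 8 over the 41 channel promoters and 6 over all 32851 promoters. The neighbours Scn2b and Scn4b, which lie 8554 bases apart with no gene between them, thus differed in this feature. The letters of 4 motifs were searched on both strands. The GC box GGGCGG was present in 15 of the 41 channel promoters (36.6%) and 32.7% of all promoters, and TATAAA in 2 (4.88%) and 12.4%. TTCAGCACC, part of the site of the repressor REST, and the cyclic AMP response element TGACGTCA were in none of the 41, beside 0.301% and 1.55% of all promoters. None of the 3 printed windows held any of the 4 except Cacng5, which had the GC box on the opposite strand at 2 positions. Such matches describe the letters only.

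In Sham mice the beta subunit genes Scn4b and Scn2b stood above the alpha subunit genes of brain sodium channels when counts were divided by gene length. The level per kilobase of gene model was 128 ± 8.72 CPM (SD, n = 4) for Scn4b and 89.8 ± 1.93 for Scn2b. Of the alpha subunit genes, Scn8a (38.2 ± 1.28 CPM per kilobase) and Scn2a (37.9 ± 3.39) were level with each other, with overlapping mice. Scn1a (18.1 ± 0.32) lay below both, and Scn3a (2.50 ± 0.299), an isoform best known from the embryonic brain, lay far below them. Among calcium channel alpha1 genes Cacna1a (31.4 ± 1.85) led, ahead of Cacna1i (25.9 ± 0.693), Cacna1e (16 ± 1.78) and Cacna1b (12.8 ± 0.612). Cacna1g (9.85 ± 0.578) and Cacna1h (9.72 ± 0.755) were not separated, and Cacna1c (7.03 ± 0.507) and Cacna1d (3.22 ± 0.277) were the lowest of the neuronal forms. The genes of muscle, retinal and sensory neuron channels, Cacna1s, Cacna1f, Scn9a, Scn10a, Scn11a and Scn4a, were each at 0.305 CPM per kilobase or less. The gene lengths are those of the deposited table, and how they were set was not given in the sources used here. The order depends on these lengths, which were 20216 bases for Cacna1e and 9928 for Cacna1a. Before division by length, Cacna1e was at 323 ± 35.9 CPM and Cacna1a at 312 ± 18.4 CPM in Sham mice.

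The 4 alpha subunit genes of brain sodium channels all fell in Vehicle mice, beside 17.3% of all tested genes that fell. Scn8a, whose product gathers at the axon initial segment and nodes, was at 540, 498, 521 and 514 CPM in Sham, at 338, 238, 426 and 402 in Vehicle and at 401, 502, 423 and 450 in LJP mice. Every Vehicle mouse was below every Sham mouse, and Vehicle mouse 2 was the lowest of all 12. The log2 fold change was -0.56 (standard error, SE, 0.15, adjusted p = 0.0103 in edgeR). Scn1a, the main alpha subunit of fast-spiking interneurons, was at 159, 154, 159 and 160 CPM in Sham, at 78.9, 45.4, 119 and 108 in Vehicle and at 109, 136, 124 and 129 in LJP mice. The spread between its Sham mice was the lowest of the 37 genes on the log2 scale, and both I/R groups lay wholly below them. Scn1a fell by 0.85 on the log2 scale, Scn3a by 0.77 and Scn2a by 0.65. These 4 genes are close paralogs, of which Scn1a, Scn2a and Scn3a lie together on chromosome 2. How reads that match several genes were counted was not given in the sources used here.

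Among beta subunit genes, Scn4b, Scn3b and Scn2b fell. Scn4b, whose product is known for its part in resurgent sodium current and for its high level in striatal medium spiny neurons, was at 603, 671, 587 and 580 CPM in Sham mice. It was at 192, 57.8, 181 and 152 CPM in Vehicle and at 323, 255, 190 and 219 CPM in LJP mice. The Sham mice were thus far above all 8 I/R mice, and LJP mouse 3 lay just below Vehicle mouse 1. The log2 fold change of Vehicle against Sham was -2.07 (SE 0.30, adjusted p = 0.000435 in edgeR), and that of LJP against Sham was -1.31 (SE 0.29, adjusted p = 0.0211 in edgeR), which passed in 5 of the 12 fits without 1 mouse. Beside Scn4b, the markers of striatal medium spiny neurons (among them Adora2a, Pde10a, Rgs9 and Drd1) all fell in Vehicle, 7 of 7, beside 17.3% of all tested genes, with a median log2 fold change of -2.42. Their summed level was 2506 to 2960 CPM in Sham, 230 to 960 in Vehicle and 896 to 1607 in LJP mice, and none was at 0. Its part in the fall of Scn4b was not tested. Scn2b, the partner next to Scn4b on chromosome 9, was at 418, 428, 431 and 411 CPM in Sham, 218, 155, 327 and 323 in Vehicle, and 352, 329, 291 and 331 in LJP mice, a log2 fold change of -0.72 in Vehicle (adjusted p = 0.00923 in edgeR).

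**Figure D1:**
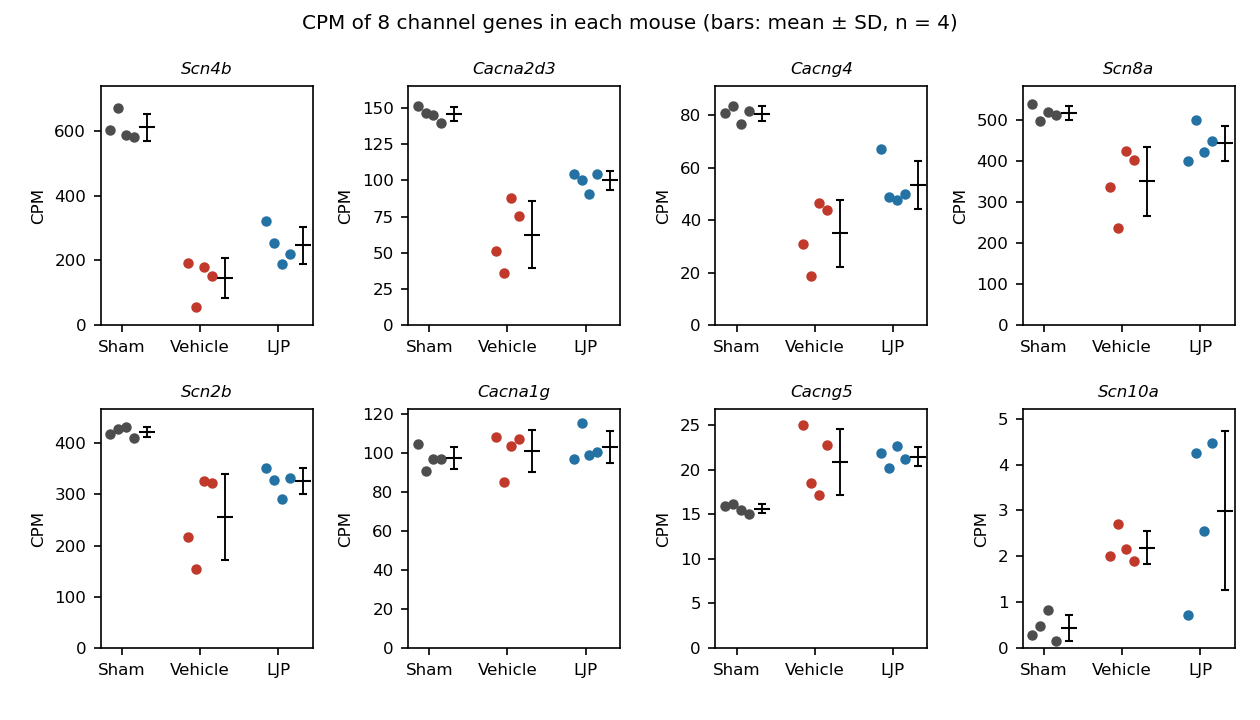
CPM (vertical axis, from 0) of 8 channel genes in each mouse of the Sham, Vehicle and LJP groups, with 1 point per mouse and the mean ± SD (n = 4) beside the points. Scn4b, Scn2b, Cacna2d3 and Cacng4 are below Sham in all Vehicle and LJP mice, Cacna1g overlaps across the groups, and Cacng5 is above Sham in all of them.

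Of the 4 tested sodium channel genes of peripheral neurons, muscle and glia 1 passed the test and rose, beside 22.7% of all tested genes that rose. Scn10a, an alpha subunit of nociceptive sensory neurons, rose in Vehicle at a very low level. Its raw counts were 5, 9, 15 and 3 in Sham, 44, 63, 40 and 35 in Vehicle, and 16, 83, 47 and 80 in LJP mice. All Vehicle mice were above all Sham mice, and LJP mouse 1, at 0.727 CPM, lay within the Sham range of 0.155 to 0.822 CPM. The log2 fold change was 2.30 in Vehicle (SE 0.55, adjusted p = 0.00664 in edgeR) and 2.75 in LJP mice against Sham (SE 0.55, adjusted p = 0.0130 in edgeR). The latter passed in 11 of the 12 fits without 1 mouse, and was lost without Sham mouse 1. Scn7a, an atypical sodium-sensing channel (log2 fold change 0.36, adjusted p = 0.133 in edgeR), and Scn9a (-0.03, 0.956) did not pass. Scn9a shares its place with an antisense RNA, Gm13629, whose mean count was 124% of its own, and reads of the pair cannot be told apart unless strand was counted, which was not given in the sources used here. Of the genes too low for the model, Scn4a had 5, 14, 0 and 1 counts in Vehicle and 0 in all Sham mice (two-sided exact permutation test, p = 0.143), and Scn11a had at most 10 counts in any mouse (exact permutation p = 0.371). With 4 mice against 4 this exact permutation test cannot go below p = 0.0286. A count of 0 allows a level of up to 0.129 to 0.173 CPM at these library sizes.

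The 3 alpha1 genes of presynaptic and R-type calcium channels all fell, beside 17.3% of all tested genes that fell. Cacna1e, the R-type pore, was at 366, 336, 308 and 283 CPM in Sham, at 159, 96.4, 224 and 204 in Vehicle and at 244, 270, 222 and 245 in LJP mice. Sham stood above both I/R groups in every mouse, while Vehicle mouse 3 reached the lower LJP values. The log2 fold change of Vehicle was -0.92 (SE 0.20, adjusted p = 0.00412 in edgeR). Cacna1a, the P/Q-type pore that drives fast transmitter release, fell by 0.62 and Cacna1b, the N-type pore, by 0.45 on the log2 scale.

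Of the 4 L-type alpha1 genes only Cacna1c passed the test and fell, beside 17.3% of all tested genes that fell. Cacna1c, the main L-type pore of forebrain and heart, was at 129, 133, 123 and 113 CPM in Sham, at 92.1, 70.4, 88.8 and 83.2 in Vehicle and at 92.7, 110, 86.1 and 95.3 in LJP mice. No I/R mouse reached the Sham range. Its log2 fold change was -0.57 in Vehicle (SE 0.10, adjusted p = 0.00122 in edgeR) and -0.37 in LJP mice (SE 0.10, adjusted p = 0.0486 in edgeR), which passed in 3 of the 12 fits without 1 mouse and was lost under library size alone, pan-neuronal scaling, no filter and the replicate block. Cacna1d, the L-type pore that opens at more negative voltages, was at 58.0, 57.4, 53.8 and 47.8 CPM in Sham and 48.3, 61.0, 49.6 and 50.8 CPM in Vehicle mice. The groups overlapped, with a log2 fold change of -0.05 (SE 0.09, adjusted p = 0.701 in edgeR), and Vehicle mouse 2, the lowest for so many other channel genes, was here the highest of its group. The coding genes Dcp1a and Chdh on the other strand overlap Cacna1d, with mean counts of 39.9% and 15.3% of its own, and Dcp1b overlaps Cacna1c (14.2%). Cacna1s of skeletal muscle and Cacna1f of the retina reached at most 1.66 and 0.969 CPM in any mouse and did not pass.

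Of the 3 T-type genes, which carry low-voltage calcium current, 2 fell, beside 17.3% of all tested genes that fell. Cacna1h and Cacna1i fell by 0.76 and 0.81 on the log2 scale (adjusted p = 0.00525 and 0.00973 in edgeR). Cacna1g, the T-type pore of thalamic relay neurons among others, was at 105, 91, 97.2 and 97.1 CPM in Sham, at 108, 85.2, 104 and 108 in Vehicle, and at 97.2, 115, 99.3 and 101 in LJP mice. These 3 ranges overlapped (log2 fold change of Vehicle 0.05 with SE 0.09, adjusted p = 0.662 in edgeR). Of the 4 thalamic markers, Tcf7l2, Prkcd, Rora and Slc17a6, 1 rose and 1 fell (beside 22.7% and 17.3% of all tested genes), and their summed level was 122 to 156 CPM in Sham, 121 to 137 in Vehicle and 118 to 128 in LJP mice. Their part in the level of Cacna1g was not tested.

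Among the alpha2delta genes, which bring calcium channels to the membrane and include the gabapentin targets, Cacna2d3 and Cacna2d1 fell. Cacna2d3 was at 151, 147, 145 and 139 CPM in Sham, at 51.5, 35.9, 87.8 and 75.6 in Vehicle and at 105, 101, 90.6 and 104 in LJP mice. The 3 groups did not overlap, with LJP between the others. The log2 fold change of Vehicle against Sham was -1.22 (SE 0.21, adjusted p = 0.00111 in edgeR). Cacna2d1 fell by 0.82 on the log2 scale (adjusted p = 0.00448 in edgeR). Cacna2d2 was at 87.8, 22.1, 72.5 and 68.1 CPM in Vehicle against 83.0 to 101 in Sham, so that mouse 1 was within the Sham range and mouse 2 far under it (log2 fold change -0.52 with SE 0.29, adjusted p = 0.174 in edgeR). Cacna2d4 did not pass (0.17, 0.637), and its 52.3 counts on average lie under the coding gene Lrtm2 on the other strand, which had 1706.

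All 4 beta subunit genes of calcium channels fell, beside 17.3% of all tested genes that fell. Their falls ran from 0.52 (Cacnb3) to 0.83 (Cacnb4) on the log2 scale. Cacnb2 was at 55.8, 64.9, 60.4 and 49.1 CPM in Sham, at 40.2, 28.1, 39.9 and 32.8 in Vehicle, and at 46.2, 49.1, 46.1 and 44.9 in LJP mice. Vehicle was below both other groups in each mouse, and the LJP mice were the closest together of their group over all 37 genes. Its log2 fold change in Vehicle was -0.71 (SE 0.12, adjusted p = 0.00107 in edgeR). Cacnb3 passed narrowly (adjusted p = 0.0491 in edgeR) and passed in only 2 of the 12 fits that left out 1 mouse. It was also lost under library size alone, pan-neuronal scaling, no filter and only the compared groups. Cacnb1 (adjusted p = 0.0324 in edgeR) passed in 7 of the 12, and was lost under pan-neuronal scaling and only the compared groups. Cacnb1 overlaps the ribosomal protein gene Rpl19, whose mean count was 135% of its own. The antisense RNA A430018G15Rik overlaps Cacnb4 (32.4% of its counts).

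Of the gamma family, the TARP genes Cacng2, Cacng3, Cacng4 and Cacng7 fell, Cacng5 rose, and Cacng6 and Cacng8 did not pass. Cacng4 was at 80.7, 83.3, 76.5 and 81.3 CPM in Sham, at 31.0, 18.9, 46.6 and 43.8 in Vehicle and at 66.9, 48.9, 47.8 and 50.0 in LJP mice. Each group was apart from the next, although LJP mouse 3 exceeded Vehicle mouse 3 by little. Its log2 fold change was -1.20 (SE 0.22, adjusted p = 0.00172 in edgeR), and that of Cacng3 was -0.99 (adjusted p = 0.00777 in edgeR). Cacng5, a type II TARP gene which lies next to Cacng4 on chromosome 11, went the other way. It was at 15.9, 16.1, 15.5 and 15 CPM in Sham, at 25, 18.4, 17.1 and 22.7 in Vehicle and at 21.9, 20.1, 22.6 and 21.1 in LJP mice. All 8 I/R mice exceeded all 4 Sham mice, with log2 fold changes of 0.42 in Vehicle (SE 0.12, adjusted p = 0.0141 in edgeR) and 0.46 in LJP mice (SE 0.12, adjusted p = 0.0425 in edgeR). The latter passed in 4 of the 12 fits without 1 mouse and was lost under pan-neuronal scaling, no filter and the replicate block. Cacng8, the most abundant gamma gene per length, had a log2 fold change of -0.34 (adjusted p = 0.0817 in edgeR). That of Cacng6, a gene with 10 to 33 counts per mouse, was -0.84 (SE 0.32, adjusted p = 0.0509 in edgeR). Cacng7 fell by 0.32 on the log2 scale, and passed in 7 of the 12 fits without 1 mouse. Its call was also lost under library size alone, pan-neuronal scaling, no filter, only the compared groups and the replicate block. Cacng1, the gamma subunit of skeletal muscle, had at most 10 counts in any mouse (exact permutation p = 0.686).

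**Figure D2:**
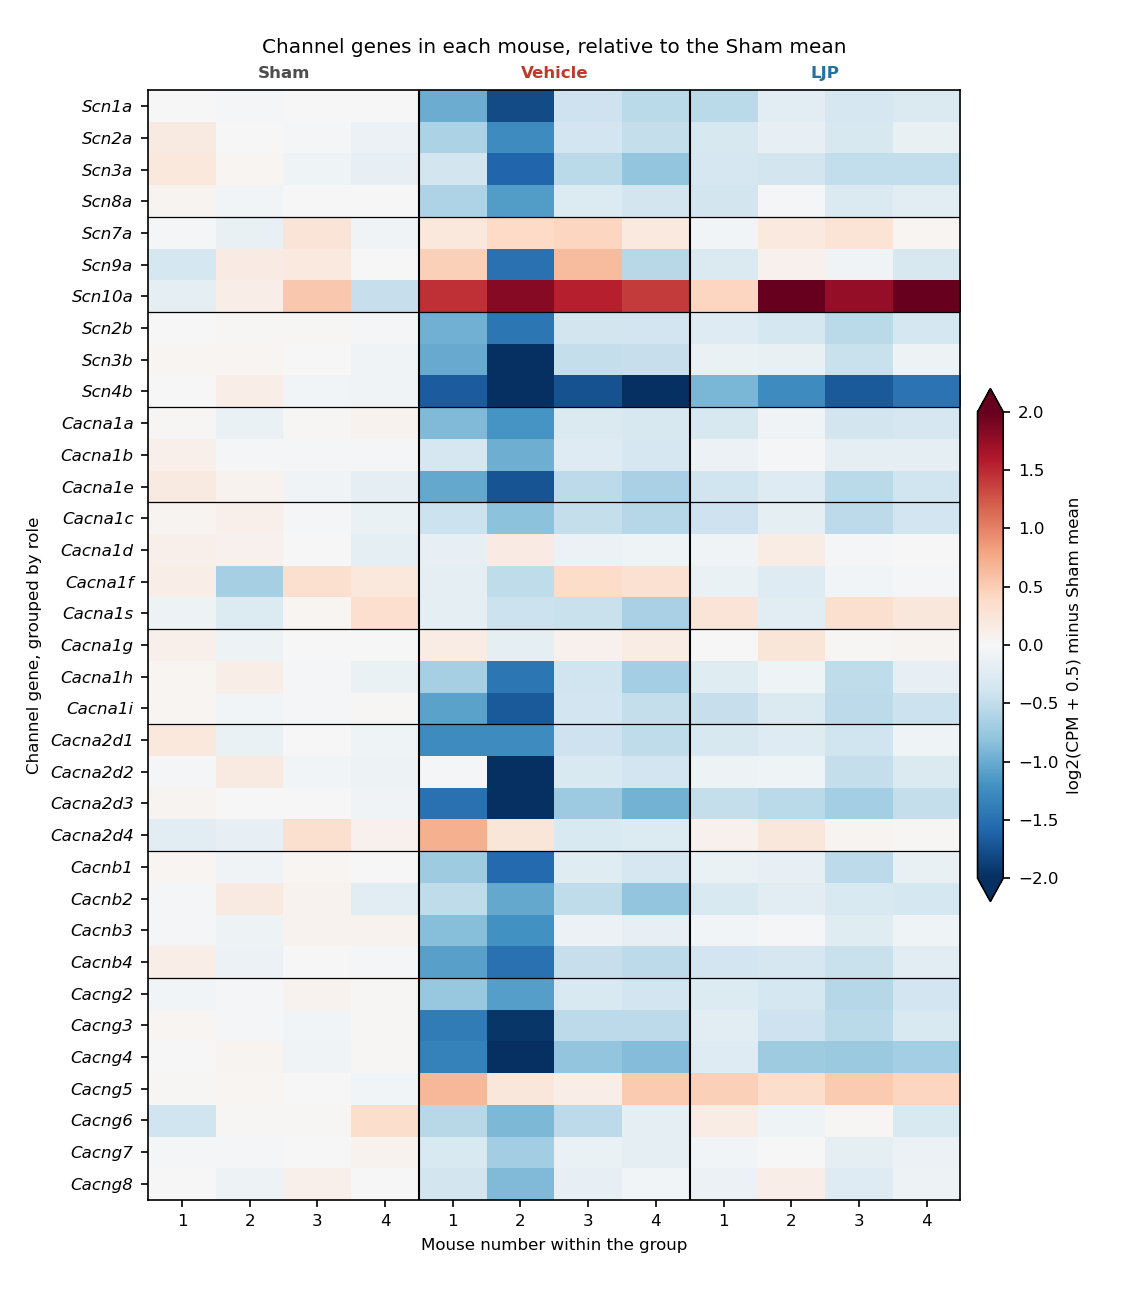
Difference of log2(CPM + 0.5) from the Sham mean (color, blue lower and red higher, ends at 2 log2 units) for 35 of the 37 tested channel genes (rows, by role) in each of the 12 mice (columns). Vehicle mouse 2 holds the darkest blue in most rows, and Scn10a and Cacng5 are red in both I/R groups.

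The Vehicle mice differed among themselves far more than the others. The SD of log2(CPM + 0.5) between mice had a median over the 37 genes of 0.11 in Sham, 0.45 in Vehicle and 0.13 in LJP mice, and of 0.23 in Vehicle without mouse 2. Vehicle mouse 2 was the lowest of its group in all 23 genes that fell. The median difference of those 23 genes from the Sham mean was -0.88, -1.44, -0.41 and -0.51 on the log2 scale in Vehicle mice 1 to 4, and -0.32, -0.22, -0.50 and -0.30 in LJP mice 1 to 4. The genes were chosen for being low in Vehicle, so these values are a description. Vehicle mouse 2 also had the lowest summed level of the 12 pan-neuronal markers in its group (4339 CPM, against 5604 to 6527 in the other 3 mice) and the highest of the 4 endothelial markers (918 CPM, against 237 to 464). Their part in the channel levels was not tested. Without this mouse 22 of 37 channel genes fell and 2 rose, beside 15.6% and 18.7% of all genes in that fit.

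Markers of other cells are given beside these values, and their counts in Vehicle are to be read against the 17.3% of all tested genes that fell and the 22.7% that rose. Of the 12 pan-neuronal markers 6 fell in Vehicle and none rose, with a median log2 fold change of -0.40 and summed levels of 7173 to 7786 CPM in Sham, 4339 to 6527 in Vehicle and 6350 to 7434 in LJP mice. Of the 5 astrocyte markers 2 rose in Vehicle, with log2 fold changes of the 5 from -0.02 to 3.87 and a median of 0.22, and with summed levels of 862 to 901 CPM in Sham, 2213 to 3665 in Vehicle and 1843 to 3021 in LJP mice. Of the 5 microglia markers 4 rose, with 262 to 268, 374 to 771 and 455 to 786 CPM. Those of cortical glutamatergic neurons, of which 1 of 5 fell, summed to 1697 to 2052, 1694 to 2255 and 2039 to 2423 CPM, so that the groups overlapped. None of the 5 interneuron markers passed, at 857 to 980, 292 to 881 and 727 to 852 CPM in sum, and of the 4 endothelial markers 2 rose in Vehicle, at 168 to 187, 237 to 918 and 178 to 216 CPM. The markers of infiltrating myeloid cells summed to 7.4 to 12.0 CPM in Sham, 45.7 to 200 in Vehicle and 14.8 to 80.8 in LJP mice. Markers of cerebellum were near 0 in all groups, at 6.32 to 12.8 CPM in sum. When libraries were scaled to the summed counts of the pan-neuronal markers, 13 channel genes fell and 4 rose (Scn10a, Cacng5, Cacna1g and Scn7a), beside 4.22% and 47.0% of all tested genes. Scaling moved the median of all genes to 0.42 and that of the channel genes to -0.24. Scn4b (-1.72), Cacna2d3 (-0.87), Cacng4 (-0.85) and Cacng3 (-0.65) kept the largest falls on the log2 scale, and 10 genes no longer passed, namely Scn8a (-0.19), Scn3a (-0.40), Cacna1a (-0.25), Cacna1b (-0.07), Cacna1c (-0.17), Cacnb1, Cacnb2, Cacnb3, Cacng2 (-0.23) and Cacng7, whose sign changed.

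**Figure D3:**
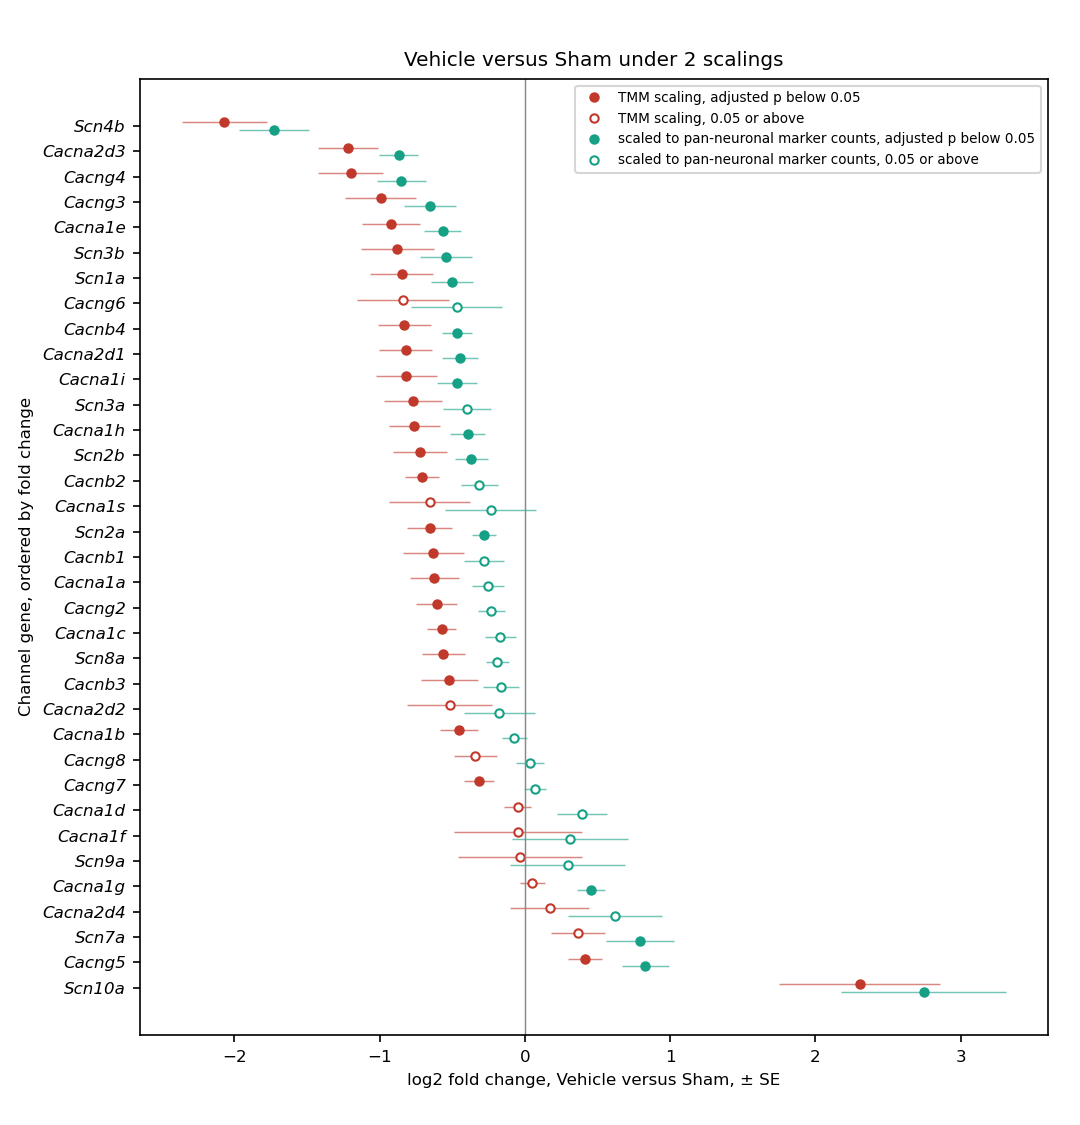
Log2 fold change of Vehicle versus Sham ± standard error (horizontal axis) for 35 of the 37 tested genes, in order of size, with TMM scaling (red) and with libraries scaled to the counts of 12 pan-neuronal markers (green). Filled points have an adjusted p below 0.05. Every gene shifts to the right under the second scaling, and Scn4b stays the lowest at -1.72.

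Ratios of paired genes within a mouse do not depend on how libraries are scaled. Of 13 such ratios between related genes, 5 did not overlap between Vehicle and Sham, 4 between LJP and Sham, and none between LJP and Vehicle. How often ratios of other genes fail to overlap was not counted. Single genes did not overlap between Vehicle and Sham in 18.8% (lower) and 20.7% (higher) of all tested genes. Pairs that share a gene are not independent. Cacna1g over Cacna1h was 0.971, 0.793, 0.954 and 1.01 in Sham, 1.65, 2.23, 1.31 and 1.65 in Vehicle, and 1.10, 1.17, 1.35 and 1.08 in LJP mice. Cacna1g over Cacna1i was 0.368 to 0.402 in Sham, 0.529 to 1.07 in Vehicle and 0.521 to 0.561 in LJP mice. Both were thus above Sham in every I/R mouse, and a T-type pair without Cacna1g, Cacna1h over Cacna1i, overlapped between all groups. Cacna1c over Cacna1d was 2.23 to 2.36 in Sham, 1.16 to 1.91 in Vehicle and 1.64 to 1.82 in LJP mice. Scn1a over Scn8a was lower in Vehicle (0.191 to 0.279) than in Sham (0.294 to 0.310), and Cacna2d1 over Cacna2d3 was higher (1.23 to 1.77 against 0.955 to 1.17). Each of these 5 ratios gave the smallest p that the two-sided exact permutation test allows between Vehicle and Sham, 0.0286, or 0.0743 after Benjamini-Hochberg adjustment over the 13 pairs. Scn2a over Scn8a was close between groups, with overlapping values and a mean difference of -0.09 on the log2 scale (exact permutation p = 0.20).

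**Figure D4:**
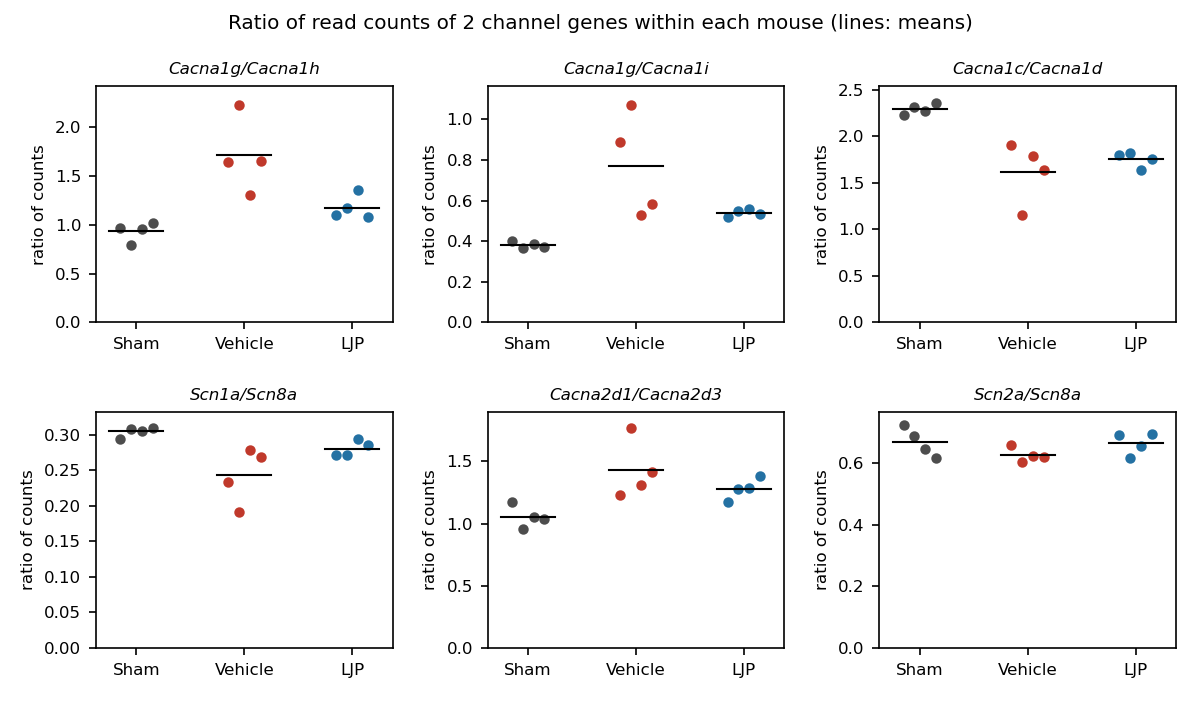
Ratio of the read counts of 2 channel genes within each mouse (vertical axis, from 0) for 6 pairs, by group, with lines at the means. The first 5 pairs do not overlap between Sham and Vehicle, and Scn2a over Scn8a does.

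LJP mice were compared with Vehicle mice, which had the same occlusion. This comparison shares its Vehicle mice with that of Vehicle against Sham, so a low Vehicle value moves both, in opposite directions. None of the 37 channel genes passed the adjusted test, beside 0.0228% of all tested genes that passed (4 genes, all lower in LJP). The median log2 fold change of the channel genes was 0.39, with 33 genes above 0 and 4 (Scn7a, Scn9a, Cacna1f and Cacna2d4) below. At an unadjusted p below 0.05, 17 of the 37 genes were higher in LJP mice and none lower, beside 12.3% and 17.4% of all tested genes. For 8 genes (Scn2a, Scn3b, Cacna1b, Cacna2d1, Cacna2d3, Cacnb2, Cacnb4 and Cacng4) every LJP mouse was above every Vehicle mouse, beside 5.77% of all tested genes. The smallest adjusted p values were those of Cacnb2 (log2 fold change 0.40 with SE 0.12, adjusted p = 0.0720 in edgeR) and Cacna2d3 (0.68 with SE 0.20, adjusted p = 0.0744 in edgeR). Scn4b (0.76 with SE 0.29, adjusted p = 0.112 in edgeR) and Scn3b (0.67 with SE 0.25, adjusted p = 0.109 in edgeR) did not pass either.

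These calls depended on the tool and on single Vehicle mice. DESeq2 passed 4 genes, Cacna1h, Cacna2d1, Cacna2d3 and Cacnb2, all higher in LJP mice, beside 3.88% that were higher and 9.48% that were lower of the 17314 genes to which it gave an adjusted p. Without Vehicle mouse 3, 13 channel genes were higher, beside 8.46% of all genes that were higher and 13.1% that were lower, and without Vehicle mouse 4 there were 3, beside 3.35% and 8.38%. Without Vehicle mouse 2 none passed and the median of the channel genes dropped to 0.19.

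Against Sham, LJP mice kept 4 calls among the 37 channel genes, 2 lower (Scn4b and Cacna1c) and 2 higher (Scn10a and Cacng5), beside 0.9% and 3.85% of all tested genes. The median log2 fold change was -0.24. In 15 genes every LJP mouse was below every Sham mouse, beside 12% of all tested genes, and in 1, Cacng5, every mouse was above, beside 12.9%. This comparison shares its Sham mice with that of Vehicle. A fit of the LJP and Sham mice alone, without the spread of the Vehicle mice, called 20 channel genes lower and 2 higher, beside 11.8% and 12.1% of all genes. The fit of all groups without Vehicle mouse 2 called 11 lower and 2 higher, beside 5.5% and 7.77%, and none of the 4 calls held in all 12 fits that left out 1 mouse.

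**Figure D5:**
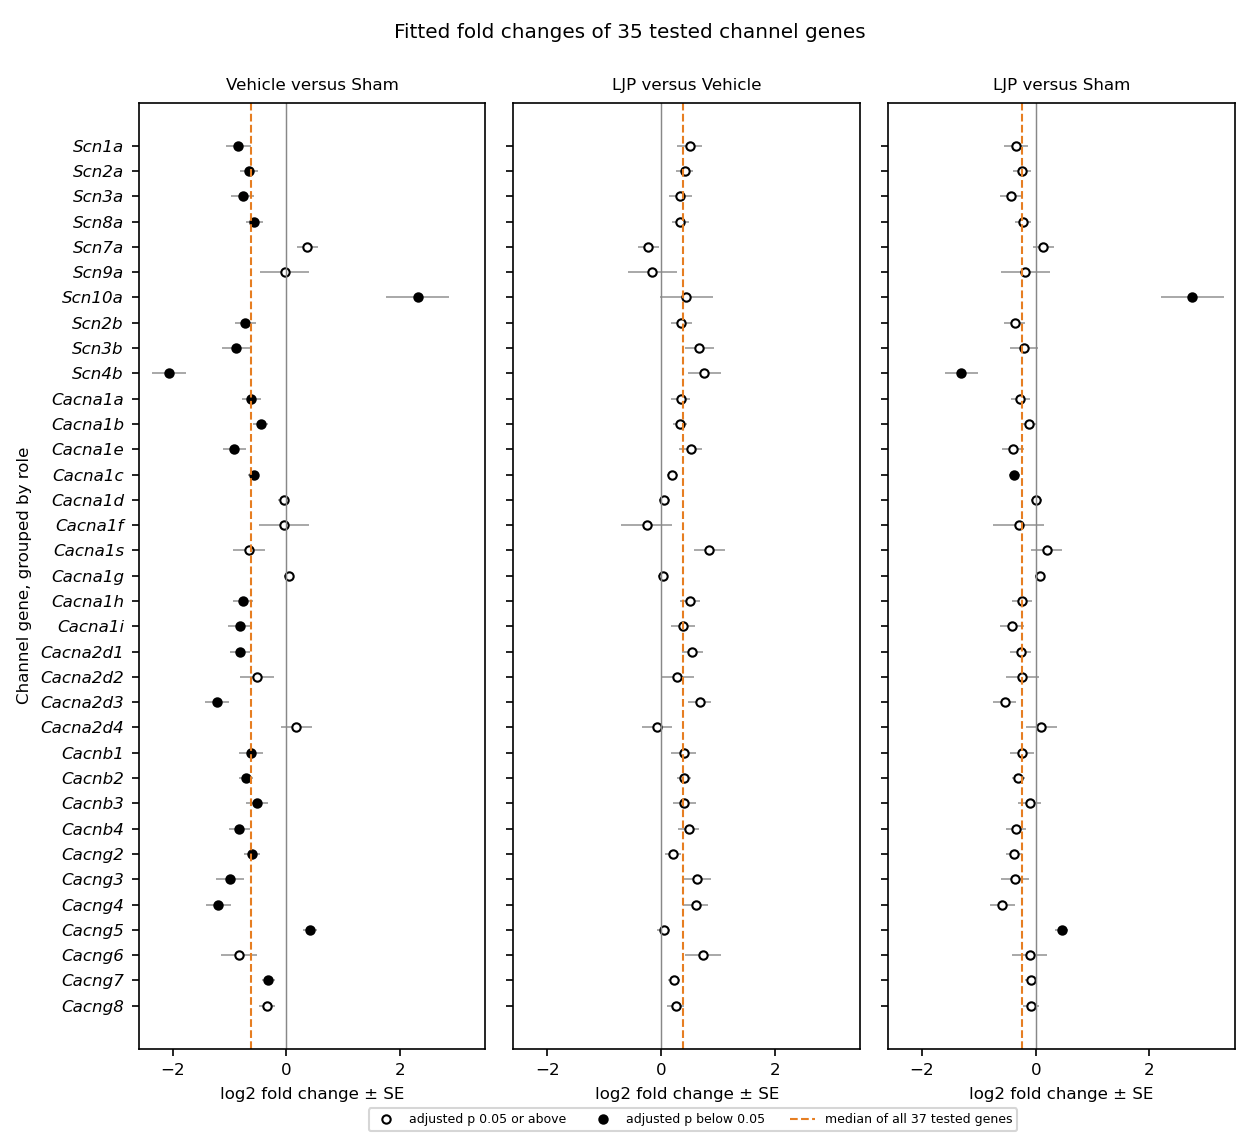
Log2 fold change ± standard error (horizontal axis) of 35 of the 37 tested channel genes (rows, by role) in the 3 comparisons, with filled points at an adjusted p below 0.05 and a dashed line at the median of all 37. The median is -0.62 for Vehicle versus Sham, 0.39 for LJP versus Vehicle and -0.24 for LJP versus Sham.

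Genes whose products work beside these channels were read from 4 lists of 47 genes. In Vehicle 26 of the 47 fell and 7 rose, beside 17.3% and 22.7% of all tested genes. Of the 9 sodium channel partners 7 fell and none rose, among them Fgf14 (log2 fold change -0.76), Fgf11 (-0.88) and Fgf12 (-0.65), intracellular modulators of sodium channels, and Nedd4l (-0.65), a ubiquitin ligase that removes them from the membrane. Of the 11 calcium channel partners 4 fell and 3 rose. Rem2, a small GTPase of neurons that inhibits calcium channels, fell by 1.63, and the release-site genes Rims1, Rims2 and Erc2 fell by 1.01, 0.67 and 0.74 on the log2 scale. The 3 that rose, named here after their values were seen, were Gem (0.69) and Rrad (0.79), GTPases related to Rem2, and Stac2 (0.28). Of the 4 genes of the NALCN sodium leak channel complex, Nalcn (-0.79), Unc79 (-0.80) and Unc80 (-0.51) fell.

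Of 23 genes of intracellular calcium handling, 12 fell and 4 rose, beside 17.3% and 22.7% of all tested genes, so that the share that rose was not above the background. The ryanodine receptor genes Ryr1 (-2.07) and Ryr3 (-1.66), which release calcium from the endoplasmic reticulum, fell most, and Atp2b1, a plasma membrane calcium pump, fell by 0.95 (adjusted p = 0.000312 in edgeR). Orai1 (1.34) and Orai3 (0.44), pores of store-operated calcium entry, and the inositol trisphosphate receptor genes Itpr3 (1.90) and Itpr2 (0.43) were the 4 that rose, of which all but Orai1 were named after their values were seen. Against Vehicle no partner gene passed in LJP mice, with 20 higher and 4 lower at an unadjusted p below 0.05, beside 12.3% and 17.4% of all tested genes. Against Sham Atp2b1 alone passed, lower, beside 0.9% of all tested genes that were lower and 3.85% that were higher. No partner gene passed against Sham with no filter, with the replicate block or without any 1 of the Sham or LJP mice. DESeq2 passed 12 partner genes against Vehicle, 9 higher and 3 lower, beside the 3.88% and 9.48% of its genes given above.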

How the data were processed

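RNA-seq was made from poly(A) RNA of a brain hemisphere, the ischemic one in the I/R groups, of 12 mice. There were 4 each in Sham, Vehicle and LJP, grouped by their labels. The authors deposited raw read counts per gene, not normalized. The submitters' processing notes name featureCounts and DESeq2 and the builds GRCm39 and mm10. Gene positions in the table were those of GRCm38.p6 for 39730 of 39756 genes. The aligner, the strand setting and the treatment of reads matching several genes were not given in the sources used here. The deposited table held between 17960353 and 22216315 counts per mouse, and intervals and floors cover counting error only.

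Counts were fitted with edgeR 4.0.16 (R 4.3.3, limma 3.58.1) by the quasi-likelihood test over all 12 mice, after filterByExpr (17558 genes kept) and TMM scaling, with Benjamini-Hochberg adjustment over all tested genes and a threshold of 0.05. CPM used TMM library sizes. The fit was run on simulated counts that had the spread of the Sham mice in every group. It recovered 91 of 100 genes changed by 1 log2 unit and 100 of 100 changed by 2, with 15 false calls among 206. Groups of unequal spread, as in these data, were not simulated. Ratios and low genes were compared by two-sided exact permutation tests (scipy 1.17.1). Alternatives were DESeq2 1.42.0, RLE scaling, library size only, scaling to pan-neuronal marker counts, no filter, only the compared groups, a replicate block, and leaving out each mouse. Separate cages, litters or cultures are not stated, so p-values measure the spread between these mice.

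Channel genes and lists were chosen with earlier results of these data known. Values of 2 tested channel genes and of 1 marker gene are not reported here, although counts and medians over the lists include them. Every other channel gene is named by role, and of partner and marker lists up to 4 called genes by smallest p, plus genes needed as a check. Promoter sequence is from RefSeq.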

Additional observations from a re-analysis of the deposited data

Results flagged for a closer look

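In 7 of 105 combinations of a channel gene and a group, 1 mouse lay far from the other 3, with a gap to its nearest neighbour above the 95% critical share (Dixon) of the whole range of the group. Chance gives about 1 in 20, or 5.25 of 105.

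Vehicle mouse 2 was the lowest of its group for Cacna1b, at 77.5 CPM against 121 to 128 (gap 0.856 of the range). Sham mouse 2 was the lowest for Scn1a, at 154 CPM against 159 to 160 (0.873). Sham mouse 1 was the highest for Cacna1b, at 164 CPM against 149 to 151 (0.885).

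LJP mouse 3 was the lowest for Scn3b, at 66.6 CPM against 82.2 to 84.4 (0.872), and for Cacnb1, at 147 CPM against 188 to 193 (0.888). LJP mouse 1 was the highest for Cacng4, at 66.9 CPM against 47.8 to 50.0 (0.883). LJP mouse 2 was the highest for Cacna1a, at 297 CPM against 240 to 249 (0.851).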

How the results depend on the processing

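The median of the channel genes in Vehicle against Sham was below 0 under every alternative run. Between 22 and 27 of the 37 genes passed when 1 mouse was left out, beside 29.5% to 45.9% of all genes in those fits. Under scaling to pan-neuronal marker counts 17 passed (beside 51.2%), with the replicate block 24 (beside 34.8%) and with DESeq2 25 (beside 35.7%). Of the 25 genes, 15 passed under all 19 alternatives and 22 in all 12 fits without 1 mouse, the exceptions being Cacnb1, Cacnb3 and Cacng7. The other comparisons were less steady, and the cause was not tested. Against Vehicle, LJP mice had 0 to 13 channel genes and 0 to 18 partner genes called without 1 mouse. These counts stand beside 0.0167% to 21.6% of all genes in those fits. DESeq2 called 4 and 12, beside 13.4% of all genes, and the fit with no filter called 2 partner genes, beside 1.96%. Against Sham, LJP mice had 0 to 13 channel and 0 to 14 partner genes called without 1 mouse, beside 2.2% to 13.3% of all genes. When only the compared groups, hence fewer samples, were fitted, 22 and 29 were called, beside 23.8% of all genes. Channel calls against Sham were 2 each under pan-neuronal scaling, no filter and the replicate block, beside 2.72%, 2.76% and 2.64% of all genes. Partner calls were 0 with no filter, 0 with the block and 3 with DESeq2, beside 7.65% of all genes with DESeq2. The correlation of deviations between same-numbered mice ran from -0.405 to 0.162, so the numbers do not pair them. Without 1 mouse, ratio pairs without overlap numbered 5 to 7 for Vehicle against Sham, 0 to 3 for LJP against Vehicle and 4 to 7 for LJP against Sham, and the medians ran from -0.72 to -0.48, 0.19 to 0.48 and -0.27 to -0.20. Pan-neuronal scaling moved these medians to -0.24, 0.13 and -0.11.

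The sign of these fold changes differed from that reported. Under library size alone, Vehicle against Sham gave 0.030 for Cacna1d, 0.027 for Cacna1f and 0.034 for Scn9a. Pan-neuronal scaling moved the median of all tested genes to 0.42 in Vehicle against Sham, -0.29 in LJP against Vehicle and 0.14 in LJP against Sham. Under it, Vehicle against Sham gave 0.39 for Cacna1d, 0.31 for Cacna1f, 0.071 for Cacng7, which had passed, 0.035 for Cacng8 and 0.29 for Scn9a. LJP against Vehicle gave -0.073 for Cacna1c, -0.25 for Cacna1d, -0.24 for Cacna1g, -0.025 for Cacng2, -0.24 for Cacng5 and -0.020 for Cacng7. LJP against Sham gave 0.012 for Cacna1b, 0.023 for Cacnb3, 0.032 for Cacng6, 0.051 for Cacng7 and 0.051 for Cacng8. Without 1 mouse, Vehicle against Sham ran from -0.34 to 0.20 for Cacna1f, -0.38 to 0.28 for Scn9a, and -0.12 to 0.32 for Cacna2d4. LJP against Vehicle ran from -0.22 to 0.22 for Cacna2d4, -0.48 to 0.19 for Scn9a, -0.046 to 0.063 for Cacna1g, -0.0011 to 0.49 for Cacna2d2 and -0.035 to 0.14 for Cacng5. LJP against Sham ran from -0.048 to 0.046 for Cacna1d and -0.26 to 0.079 for Cacng6. Depth limits Scn10a, Scn4a, Scn11a and Cacng1, whose counts were low in every mouse. It also limits Cacna1f (4 to 18 counts), Cacng6 (10 to 33) and Cacna1s (11 to 34).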
